A study of Mus musculus with 2 samples.

Results

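Mir122, Mir375, Mir216a, Mir216b and Mir217 are miRNA genes best known from liver and pancreas, and their small RNA was measured here in hearts of mouse embryos at day 11.5. They were taken by gene ID from the deposited count tables, and all 5 were found among 1973 counted miRNA genes. The only group comprised 2 microRNA-seq libraries, labelled biological replicates 1 and 2. Both came from healthy B6NCrl embryos of both sexes pooled, and no genetic change or treatment is named. Replicate 1 pooled the hearts of 109 embryos, and the sources used here give no number for replicate 2. Separate tissue samples are named for the replicates without a word on litters, so the spread between them may be partly technical.

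A miRNA gene is transcribed into a hairpin that is cut into short mature strands, 1 from each arm. A mature strand loaded into an Argonaute protein pairs through its seed, bases 2 to 8, with messenger RNAs and lowers their output. Mir122 gives the leading miRNA of hepatocytes, where it acts on cholesterol and lipid metabolism. Mir375 is highly expressed in pancreatic islets, where it limits insulin secretion, and in other endocrine cells such as those of the gut and pituitary. Mir216a, Mir216b and Mir217 share a locus and mark the acinar cells that make digestive enzymes, while miR-216a and miR-217 have also been studied in vascular endothelium. Liver and pancreas are outgrowths of the foregut at this stage.

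The RefSeq miRNA table on GRCm38.p6 held 4 of the 5 genes. The 5-prime arms are shown because they carry the seeds by which the Mir216-Mir217 genes differ, and the Mir375 hairpin because that gene differed between the libraries. Capitals mark the seed in mature strands and the annotated 5-prime strand in the hairpin.
mmu-miR-216a-5p: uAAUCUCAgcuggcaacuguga
mmu-miR-216b-5p: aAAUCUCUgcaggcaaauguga
mmu-miR-217-5p: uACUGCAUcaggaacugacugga
mmu-miR-375-5p: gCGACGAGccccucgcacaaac
Mir375 hairpin: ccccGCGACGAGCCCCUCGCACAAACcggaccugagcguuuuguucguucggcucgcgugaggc

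Counted from the 5-prime end, with the miR-216b base first, miR-216b-5p and miR-216a-5p differ by A1U, U8A, A11U and A17C. They are identical at 18 of 22 positions and at 6 of the 7 seed positions, so the seeds of these close relatives part at their last base. The seed of miR-217-5p matches that of miR-216b-5p at 3 of 7 positions and that of miR-216a-5p at 2. The 4 genes have 7 mature strands in the table, and the seed of each was found in no other gene's mature strand among 1738. For Mir375 this covers miR-375-5p alone, because the RefSeq table held no miR-375-3p strand. The seed of miR-375-3p was not examined, so the seed shown need not be the one behind the known roles of Mir375. The strands of Mir375, Mir216a and Mir217 shared no run of 20 bases with another of 1005 hairpins on either strand. Those of Mir216b shared such runs with Mir216c alone, whose hairpin is read from the opposite strand of the same bases. The 4 hairpins ranged in GC content from 38% for Mir217 to 67.2% for Mir375, against a median of 51.7% over the 1005 hairpins. Their predicted folding energies per base lay between -0.427 kcal/mol for Mir216b and -0.331 kcal/mol for Mir217, against a median of -0.406 kcal/mol. Counts are per gene, so the arms are not separated.

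The Mir216-Mir217 genes lie on the plus strand of chromosome 11 within 17645 bases (GRCm38, GENCODE M21). Mir216b (ENSMUSG00000076318.1) spans 28746191 to 28746276 and overlaps no annotated gene on its own strand. Mir216a (ENSMUSG00000065539.1) spans 28757012 to 28757083, and Mir217 (ENSMUSG00000065415.1) spans 28763728 to 28763835. Both of these lie in introns of the long non-coding RNA gene Gm12082, which starts 5356 bases downstream of Mir216b. Gaps of 10735 and 6644 bases separate the neighbours. Mir375 (ENSMUSG00000065616.2 in the files, version 3 in M21) spans 74900658 to 74900721 on the minus strand of chromosome 1. It overlaps no annotated gene. Its nearest is Cfap65 at 1349 bases, followed within 50 kb on the same strand by the lens crystallin gene Cryba2, the transcription factor gene Fev and the hedgehog ligand gene Ihh.

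Mir122 (ENSMUSG00000065402.1) lies on the plus strand of chromosome 18, from 65248861 to 65248926. It overlaps an exon of the long intergenic RNA gene AC157910.3 on the same strand. The protein-coding genes Alpk2 and Nedd4l are its neighbours within 50 kb.

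Replicate 1 held 18467499 reads counted on the strand of a miRNA gene, and replicate 2 held 2017294, a 9.15-fold difference in depth. CPM values are these counts scaled to a total of 1000000 a library. A count of 0 allows up to 0.162 CPM in replicate 1 and 1.49 CPM in replicate 2, taken from 3 counts. Intervals are exact 95% Clopper-Pearson intervals, and like the floors they describe counting error only, because no molecular identifiers mark which reads came from 1 molecule. Detection meant at least 1 CPM in both libraries and held for 419 genes. The heart muscle miRNA genes Mir208a, Mir208b and Mir499, which mark the labelled tissue, were all detected and summed to 58391 and 63138 CPM in replicates 1 and 2. Of the 5 liver and pancreas genes, 4 passed the detection limit and Mir216a did not. In whole tissue, fewer cells of a type and less RNA per cell cannot be told apart.

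Mir122 was the most abundant of the 5. It had 7298 counts in replicate 1 and 323 in replicate 2, or 395 CPM (386 to 404) and 160 CPM (143 to 179). The mean was 278 ± 166 CPM (SD, n = 2). Among all 1973 genes it ranked 119 in replicate 1 and 169 in replicate 2, and its ranks among the 419 detected genes were the same.

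Mir375 came second. It had 2077 counts in replicate 1 and 98 in replicate 2, which made 112 CPM (108 to 117) and 48.6 CPM (39.4 to 59.2). Its mean was 80.5 ± 45.2 CPM (SD, n = 2), which was also the median of the mean levels of the 419 detected genes. It ranked 197 and 226, both among the 1973 genes and among the 419 detected. The intervals of the libraries did not overlap for either of these genes, and replicate 1 was the higher library for both.

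The acinar locus stood far lower. Mir217 had 69 counts in replicate 1 and 10 in replicate 2, or 3.74 CPM (2.91 to 4.73) and 4.96 CPM (2.38 to 9.12), with a mean of 4.35 ± 0.86 CPM (SD, n = 2). Mir216b had 34 and 3 counts, or 1.84 CPM (1.27 to 2.57) and 1.49 CPM (0.307 to 4.35), with a mean of 1.66 ± 0.25 CPM (SD, n = 2). Both genes gave overlapping intervals in the libraries, and they ranked 354 and 394 among the 419 detected genes in replicate 1 and 334 and 407 in replicate 2. Mir216a had 20 counts in replicate 1, or 1.08 CPM (0.662 to 1.67), and 0 in replicate 2, which allows up to 1.49 CPM. At the rate of replicate 1, replicate 2 would hold 2.18 counts of Mir216a, so a difference was not detectable at this depth and no fold is given.

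**Figure D1:**
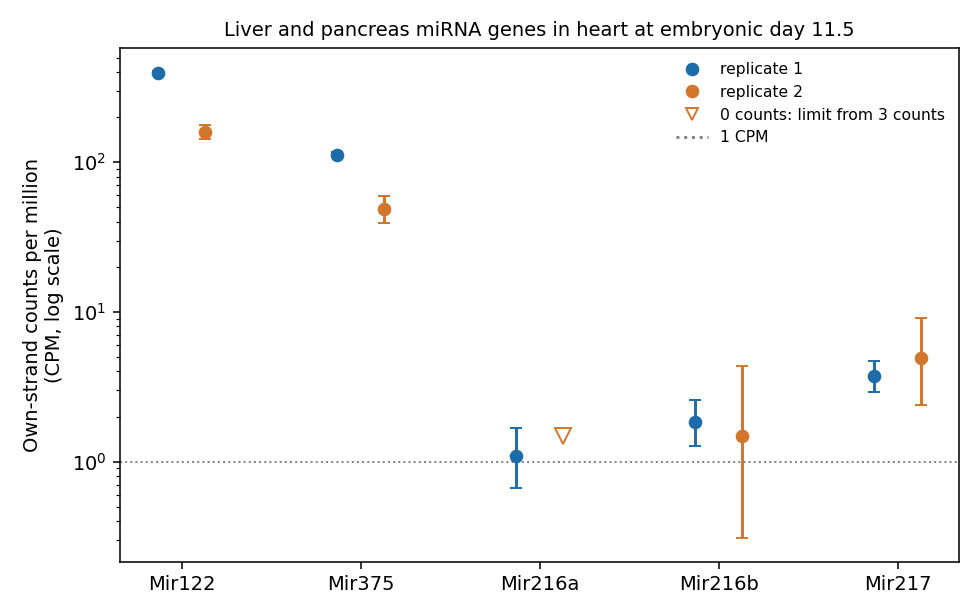
Own-strand CPM (log axis) of the 5 genes in replicate 1 (left point of each pair) and replicate 2 (right point), with exact 95% intervals; the open triangle is the limit that 0 counts of Mir216a allow in replicate 2. Mir122 and Mir375 stand higher in replicate 1, at 395 and 112 CPM, than in replicate 2, at 160 and 48.6 CPM, while the Mir216-Mir217 genes lie below 5 CPM in both.

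In each library the order of the levels was Mir122, Mir375, Mir217, Mir216b and Mir216a, and it was the same per base of the annotated gene. The last place of Mir216a is not settled in replicate 2, where 0 counts allow up to 1.49 CPM, the level of Mir216b. Per 100 bases the mean levels were 421 CPM for Mir122, 126 CPM for Mir375, 4.02 CPM for Mir217, 1.94 CPM for Mir216b and 0.752 CPM for Mir216a. Such ratios compare counts and take no account of how well each miRNA is read. Mir122 exceeded Mir375 3.51-fold in replicate 1 and 3.30-fold in replicate 2, a mean log2 ratio of 1.77 ± 0.07 (SD, n = 2). Mir375 exceeded Mir217 30.1-fold in replicate 1 and 9.80-fold in replicate 2, a mean log2 ratio of 4.10 ± 1.14 (SD, n = 2). Both ratios were larger than the spread between the libraries, with exact binomial intervals that excluded equality in each. Mir216b against Mir217 gave log2 ratios of -1.02 (-1.66 to -0.41) in replicate 1 and -1.74 (-4.24 to 0.22) in replicate 2, so the order of these neighbours held beyond counting error in the deeper library alone. Mir216a against Mir216b gave -0.77 (-1.64 to 0.07) on the log2 scale in replicate 1, which did not part them.

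Taken as a locus, Mir216a, Mir216b and Mir217 had 123 counts in replicate 1 and 13 in replicate 2, a sum chosen after the values were seen. This made 6.66 and 6.44 CPM, or 6.55 ± 0.15 CPM (SD, n = 2). Mir217 gave 56.1% of the locus counts in replicate 1 (46.9 to 65.0) and 76.9% in replicate 2 (46.2 to 94.96). Mir216b gave 27.6% (19.96 to 36.4) and 23.1% (5.04 to 53.8), and Mir216a 16.3% (10.2 to 24.0) in replicate 1 and 0 of 13 counts in replicate 2. The intervals of these shares overlapped between the libraries for all 3 genes.

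**Figure D2:**
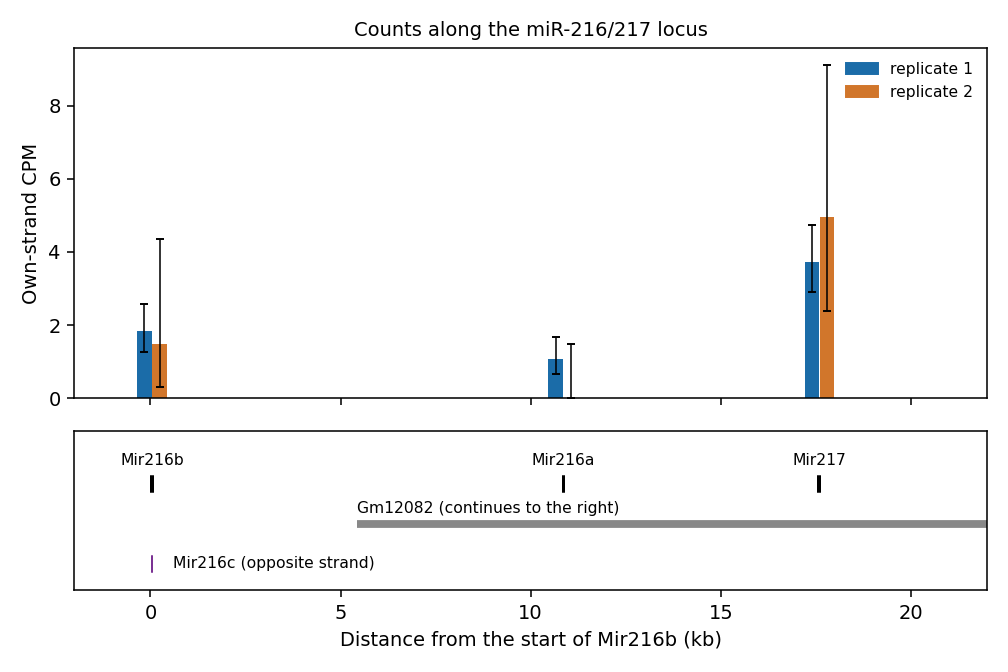
Own-strand CPM of the Mir216-Mir217 genes (bars, with exact 95% intervals; for the 0 of Mir216a in replicate 2 the line is the limit from 3 counts) at their distance in kb from the start of Mir216b, above the annotated genes drawn to scale. Mir217, at the downstream end, is the tallest in both libraries, with 3.74 CPM in replicate 1 against 4.96 CPM in replicate 2.

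The libraries were next compared gene by gene, to ask whether the 5 genes held a stable level between heart samples. Ratios are replicate 1 over replicate 2, tested against the depths of the libraries with an exact binomial test (two-sided), with p-values adjusted by Benjamini-Hochberg over the 419 detected genes. A gene was called at an adjusted p under 0.05 and a fold of at least 2. This test compares 2 libraries, not conditions. Mir122 was 2.47-fold higher in replicate 1 (2.21 to 2.77), or 1.30 on the log2 scale (exact binomial test, adjusted p = 2.28e-73). Mir375 was 2.32-fold higher in replicate 1 (1.89 to 2.86), or 1.21 on the log2 scale (exact binomial test, adjusted p = 4.78e-19). Both calls ended when the spread over genes was allowed for. edgeR's exact test, run at a common biological coefficient of variation of 17.9%, gave an adjusted p of 0.0616 for Mir122 and 0.200 for Mir375.

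Mir216b and Mir217 were not called. The ratio of Mir216b was 1.24 (0.389 to 6.30), with an adjusted p of 1.0 by the exact binomial test. That of Mir217 was 0.754 (0.386 to 1.64), with an adjusted p of 0.594 by the same exact test. The interval of Mir216b takes in 2-fold differences in both directions, and that of Mir217 a 2-fold lower level in replicate 1. Hence 2 of the 4 tested genes were called, both higher in replicate 1. Over all tested genes 11 were called, or 2.63%, with 8 higher in replicate 1 (1.91%) and 3 lower (0.716%). With all mapped reads as library size, the split was 7 higher and 5 lower. The ratio of Mir122 was the fifth highest among the called genes and that of Mir375 the seventh. The called genes with higher ratios than Mir122 were Gm26117 at 18.8, Mir6240 at 8.22, Mir6538 at 6.14 and Mir5126 at 3.69. The median ratio over the 419 genes was 0.01 on the log2 scale, and the median absolute fold was 1.11.

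**Figure D3:**
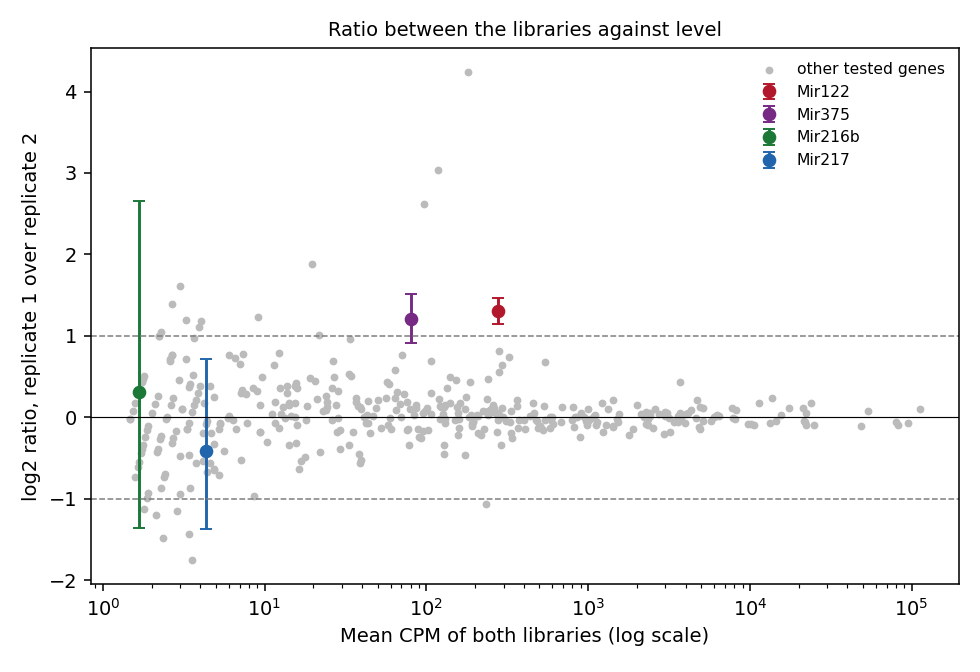
Log2 ratio of replicate 1 over replicate 2 against mean CPM (log axis) for the 419 tested genes (grey), with Mir122, Mir375, Mir216b and Mir217 in colour and their exact 95% intervals; dashed lines mark 2-fold. Mir122 and Mir375 lie above the upper line at 1.30 and 1.21, and the intervals of Mir216b and Mir217 cross equality.

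Whether the 5 genes moved by a like fold was tested on their counts, pair by pair, with a two-sided Fisher's exact test and adjustment over the 10 pairs. Mir122 and Mir375 did not differ beyond counting error: the ratio of Mir122 was 1.07 times that of Mir375, with an interval of 0.837 to 1.35 (Fisher's exact test, adjusted p = 0.737). Mir217 differed from both. The ratio of Mir122 was 3.27 times that of Mir217 (1.49 to 6.47), and that of Mir375 was 3.07 times that of Mir217 (1.37 to 6.23), each with an adjusted p of 0.0186 by Fisher's exact test. The other 7 pairs did not pass, and those with Mir216b had wide intervals, such as 0.390 to 6.39 against Mir122. Only counting error enters these p-values, so the spread between heart samples is left out of them, and Mir217 rests on 10 counts in replicate 2.

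For the summed locus the ratio between the libraries was 1.03, with an interval of 0.583 to 2.00, and 0.941 with all mapped reads as library size. It is given without a test, since the sum was chosen after the values were seen. Mir217 supplied 69 of the 123 locus counts in replicate 1 and 10 of the 13 in replicate 2. Of the counts of the 5 genes together, Mir122 made up 76.8% in replicate 1 and 74.4% in replicate 2, and Mir375 21.9% and 22.6%. The locus made up 1.30% (1.08 to 1.54) in replicate 1 and 2.995% (1.604 to 5.07) in replicate 2. These intervals hold counting error only and, for a sum chosen after the values were seen, are not read as a test.

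The 5 genes were then set beside other miRNA genes of the same tissues. The hepatocyte and hepatoblast list had 7 genes in the count table, all detected, and 1 was called, Mir122. At an adjusted p under 0.05 with no minimum fold, 2 were higher in replicate 1 and 1 was lower. Over all tested genes, 15.0% were higher by that rule and 14.3% lower. Mir192, a liver and gut miRNA, stood at 67.2 and 50.6 CPM in replicates 1 and 2, a ratio of 1.33 (exact binomial test, adjusted p = 0.020). Mir148a, abundant in liver and pancreas, stood at 952 and 1021 CPM, a ratio of 0.933 (adjusted p = 0.013, exact binomial test). Mir101b, the highest of the list, stood at 2331 and 2357 CPM, and Mir802, a liver, kidney and pancreas miRNA, at 3.03 and 4.46 CPM. Mir194-1 and Mir194-2 had ratios of 0.953 and 0.872, and their counts are uncertain because paralogous loci share a mature sequence. The list's median ratio was -0.07 on the log2 scale, and its summed level was 3833 CPM in replicate 1 and 3685 CPM in replicate 2. Most of that sum came from Mir101b and Mir148a, so it says little about Mir122. Mir122 had the highest ratio of the 7 and Mir802 the lowest, at 0.680.

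The endocrine list had 8 genes in the table and 7 detected, of which Mir375 was called. Mir204, known from islets and the retina, was the other one past the adjusted p, at 118 and 96.2 CPM in replicates 1 and 2, a ratio of 1.23 (exact binomial test, adjusted p = 0.0187). Mir7-1, from a family of endocrine and neural miRNAs, stood at 50.5 and 46.6 CPM. Its relatives Mir7b, at 72 and 3 counts, and Mir7-2, at 55 and 2 counts, had ratios of 2.62 (0.862 to 13.01) and 3.004 (0.793 to 25.4). Mir7-2 was below the detection limit in replicate 2, and Mir7-1 and Mir7-2 carry a shared mature sequence, so both are uncertain. Mir153 and Mir184 had ratios of 0.977 and 1.10. Mir802, which is also on the hepatocyte list, was lower in replicate 1, at a ratio of 0.680 (0.334 to 1.56). The list's median was 0.14 on the log2 scale. The acinar list holds the Mir216-Mir217 genes and Mir148a, and 0 of its 3 detected genes were called.

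**Figure D4:**
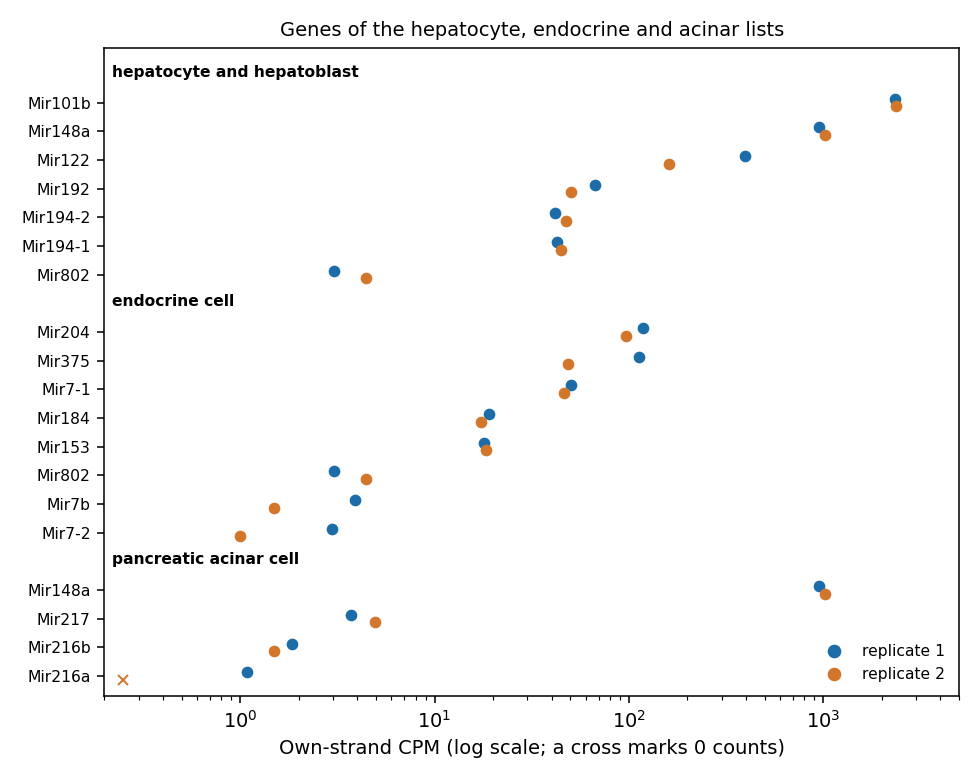
Own-strand CPM (log axis) in replicate 1 and replicate 2 for the genes of the hepatocyte, endocrine and acinar lists, ordered by mean level within each list. The points of Mir122 (395 and 160 CPM) and Mir375 (112 and 48.6 CPM) lie apart, as do those of the low Mir7b and Mir7-2, and those of the more abundant Mir101b and Mir148a lie close together.

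Markers of other cell types were read beside these ratios, and their part in the differences was not tested. All 7 epithelial genes (Mir203, Mir205 and the miR-200 family) passed the adjusted p in the same direction as Mir122 and Mir375, and 0 reached 2-fold. By that rule 15.0% of all tested genes were higher in replicate 1. Genes were counted singly and not by locus, so the 7 epithelial genes need not be independent of each other. With edgeR's exact test 0 of the 7 passed (adjusted p = 1.0 for each), and 2, Mir200c and Mir141, had an unadjusted p under 0.05. The same test passed 0 genes on each of the other lists, where Mir122 and Mir375 alone had an unadjusted p under 0.05. The summed level of the epithelial genes was 2144 CPM in replicate 1 and 1488 CPM in replicate 2. The ratio of Mir141 was the highest of them at 1.95 (1.45 to 2.69), and Mir200c followed at 1.75 (1.59 to 1.94). The red cell list held 3 of 3 genes, with Mir451a at a ratio of 1.01 and Mir144 at 1.04, neither past the adjusted p. The remaining gene, Mir486, had a ratio of 1.70 (1.40 to 2.09), and the list summed to 1084 and 1036 CPM. The leukocyte list, with 3 of 5 genes in the table, summed to 396 CPM in replicate 1 and 366 CPM in replicate 2. Its genes went different ways, with ratios of 1.17 for Mir223, 0.642 for Mir150 and 0.994 for Mir155. The 6 gut genes include Mir375, and of the rest only Mir192 passed, with Mir215 at 1.07 and Mir31 at 0.996. The heart muscle, endothelial and smooth muscle lists were lower in replicate 1, with median log2 ratios of -0.11, -0.09 and -0.12. At an adjusted p under 0.05 (exact binomial test), 3 of 3, 1 of 1 and 2 of 2 of their genes were lower, and 0 reached 2-fold. Lower by that rule were 14.3% of all tested genes. Of the 6 neuronal genes in the table, Mir137 alone was detected and Mir9-2, Mir124a-1 and Mir124a-3 were at 0 in both libraries. The Mir9 loci share a mature sequence, as do the Mir124a loci, so their counts are uncertain and are not read as absence.

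**Figure D5:**
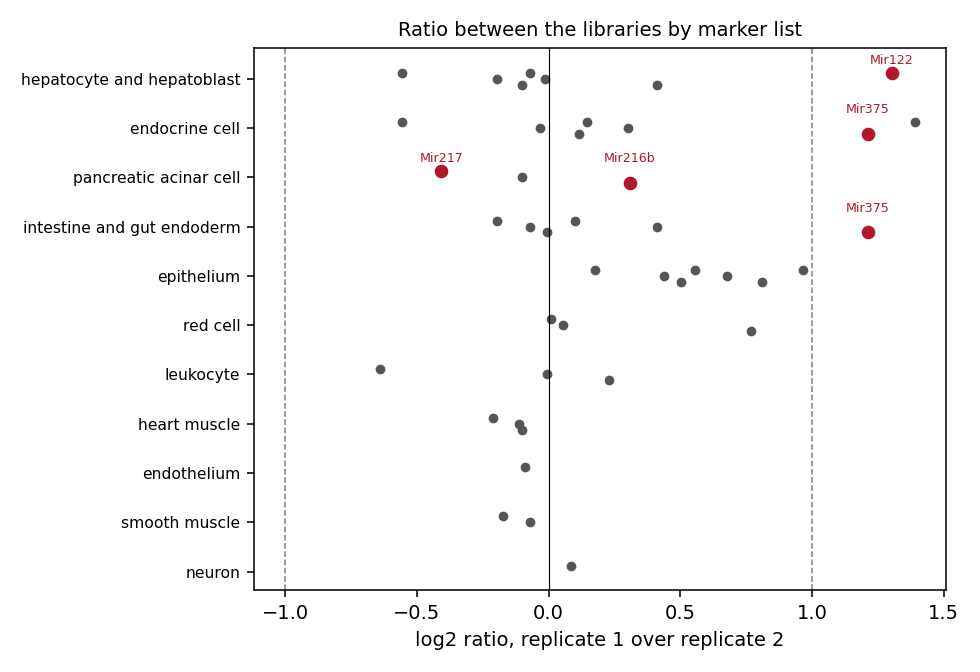
Log2 ratio of replicate 1 over replicate 2 for the detected genes of each of the 11 marker lists, with the liver and pancreas genes in red and dashed lines at 2-fold. Mir122 (1.30), Mir375 (1.21) and the low-count endocrine Mir7b (1.39) lie beyond the 2-fold line, the 7 epithelial genes lie between equality and that line, and Mir217 lies below equality at -0.41.

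Finally, the genes closest in level were listed, by Euclidean distance on log2(CPM + 1) over the 2 libraries. With 2 points per gene this likeness is a description of level and ratio alone. Nearest to Mir122 were the epithelial Mir200c (358 and 204 CPM, distance 0.38), Gm23935 (357 and 229 CPM) and the epithelial Mir205 (332 and 226 CPM). Nearest to Mir375 were the red cell and muscle miRNA gene Mir486 (89.5 and 52.5 CPM, distance 0.34), Mir378c and Mir760. Mir217 had Mir201, Mir1964 and Mir19b-2 as neighbours, and Mir216b had Mir135a-2, Mir7051 and Gm25732, all within a distance of 0.12.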

How the data were processed

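MicroRNA-seq of embryonic mouse heart gave 2 libraries of 1 group. The authors deposited raw counts per miRNA gene on mm10 with GENCODE M4, per the file headers in the notes deposited with them. The sources used here name neither aligner nor counter. Without column names, each table gives 3 columns of counts and 4 summary rows. The columns were taken, from layout and sums, as both strands, own strand and opposite strand, which no source states. Own-strand counts were used, and the summary rows were left out of totals and tests. They held 38.4% unmapped, 20.8% multimapping and 8.77% unassigned reads in replicate 1, against 27.5%, 24.1% and 7.04% in replicate 2. Multimapping reads appear to stand on no gene.

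Of 1973 gene IDs, 1894 matched GENCODE M21 (GRCm38), which gave symbols, coordinates (1-based) and neighbours. Sequences came from RefSeq tables on GRCm38.p6, and folding energies from RNAfold 2.7.2. The exact binomial test (scipy 1.17.1), checked on data simulated with counting error alone, was the main test because edgeR's quasi-likelihood test has no residual degrees of freedom with 1 library a side. edgeR 4.0.16 gave TMM factors and an exact test, with the dispersion estimated from both libraries as 1 group, and DESeq2 1.42.0 gave size factors. Other alternatives were other detection limits, unstranded counts, other totals, each replicate left out, counts per base and other pseudocounts (0.5 and 5).

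Genes were named by rule: the 5 genes, detected genes of the hepatocyte, endocrine and acinar lists, the 3 nearest in level, seed sharers, neighbours within 50 kb and genes called between the libraries. The genes and the 11 lists were chosen with earlier results of these data known. Values given for other marker lists were added after they were seen.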

Additional observations from a re-analysis of the deposited data

Results flagged for a closer look

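Opposite-strand reads, which entered only the alternative with unstranded counts, exceeded the 3-count limit of a count of 0 at Mir122 and Mir216b. At Mir122 there were 12 such counts in replicate 1 and 3 in replicate 2, beside 7298 and 323 on its own strand. At Mir216b there were 11 in replicate 1 and 0 in replicate 2, beside 34 and 3 on its own strand. These 11 reads lie where M21 places Mir216c, a gene that was not counted separately. Mir375, Mir216a and Mir217 had 0 opposite-strand counts in both libraries.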

How the results depend on the processing

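The ratios of Mir122 and Mir375 between the libraries kept their direction under all 7 alternatives, and their calls under 6. The other detection limits leave each ratio as it is, so direction could not change there. TMM and DESeq2 scaling shift all genes alike, by -0.015 and -0.013 on the log2 scale, and edgeR's test used the TMM factors. Under edgeR's exact test the log2 ratios of Mir122 and Mir375 were 1.29 and 1.20 and neither was called. That test called 4 genes in all (12 at an unadjusted p under 0.05), and 0 on the hepatocyte and 0 on the endocrine list. Without a minimum fold 123 genes passed. All mapped reads as library size moved the median log2 ratio of the tested genes by -0.14, to -0.12. Mean levels were then 148 CPM for Mir122, 43.1 for Mir375, 0.902 for Mir216b and 2.38 for Mir217. The ratios of Mir7-1, Mir215, Mir144, Mir451a, Mir137 and the summed locus, and the medians of the gut, red cell and neuronal lists, lay just below equality instead of just above it, and the ratio of Mir451a did so also with TMM and DESeq2 scaling (checked after seeing the data). With the 10 most abundant genes left out of the totals, Mir122 stood at 636, Mir375 at 185, Mir216b at 3.82 and Mir217 at 10.001 CPM. Leaving out 1 replicate returns the value of the other, so it gave the log2 ratios of Mir216b over Mir217 already shown, -1.02 and -1.74. No member's ratio and no pair of members reversed. Pairs were tried only with unstranded counts, per base and with 1 replicate left out, because library size cancels in them. Depth limits Mir216a and Mir216b most, at 0 and 3 counts in replicate 2. No paired analysis was possible because the design has 1 group.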
